A study of Mus musculus with 84 samples.

Results

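The genes described here are those of glucose transport, glycolysis, lactate export and the pentose phosphate pathway. They were taken from a fixed list of 32 gene names, which matched 33 gene identifiers because Aldoa has 2, out of 55471 genes in the deposited count tables. The cells are MMC9s, mast cells of the intestinal mucosa that produce IL-9, taken from the small intestine of allergic BALB/c mice. For the bulk libraries, WT mice sensitized to ovalbumin received bone marrow progenitors of WT, IL4RaY709F or IL4Ra-/- mice and then 7 oral ovalbumin challenges, at 3 per week. IL4RaY709F is a gain-of-function allele of Il4ra, in which an inhibitory tyrosine of the receptor is replaced by phenylalanine, and IL4Ra-/- is a loss of function. The recipients were WT in all 3 groups, and the sources used here do not give the gate of the bulk sort, the ages of the mice or whether the recipients' own cells had been depleted. Each genotype has 1 library, made from RNA pooled over 12 to 20 biological replicates. A separate set of 81 single WT MMC9s came from an ovalbumin and alum model. The sort took ST2+ c-Kit+ cells that were Lin- and IL-17RB2-, high for IL-4GFP and low for β7-integrin. No animal is named for them, so they count as 1 sample.

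The gene reads of the bulk libraries numbered 2299793 for WT, 2521791 for IL4RaY709F and 2330628 for IL4Ra-/-. The floor used for a count of 0, which is 3 reads, equals 1.31, 1.29 and 1.18 CPM in turn, where CPM is the count scaled to a fixed library total. The 80 cells kept had 163596 to 2210211 gene reads. 1 cell with 1225 gene reads was left out. With 1 library per genotype there is no spread between replicates and no p-value. Each ratio below compares 2 libraries and carries an exact binomial 95% interval, which covers counting error only. Il4ra, the gene altered in both mutants, had 806 reads in WT, 1831 in IL4RaY709F and 350 in IL4Ra-/- (353, 787 and 138 CPM). The gain-of-function label describes the receptor and gives no direction for its RNA. Counts per gene do not show the Y709F base change, and the sources used here do not say which exons IL4Ra-/- lacks. The mast cell markers Cpa3 and Kit were detected in 80 and 79 of the 80 cells.

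Glucose enters cells through facilitative transporters of the Slc2a family and is trapped by hexokinases. The hexose phosphates are then split into triose phosphates, which are oxidized to pyruvate with a yield of ATP and NADH. Lactate dehydrogenase turns pyruvate into lactate, which leaves through the monocarboxylate transporters, and the pentose phosphate pathway branches off at glucose 6-phosphate to make NADPH and ribose. In mast cells, activation through the IgE receptor is known to raise glucose use, and IL-4 acts on hematopoietic cells through STAT6 and through insulin receptor substrate proteins. HIF-1, of which Hif1a encodes the oxygen-regulated subunit, is a known activator of many glycolytic genes and binds a core of the letters ACGTG.

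Levels are compared between genes as CPM per kb of exon after scaling by the trimmed mean of M-values (TMM). The length takes in all annotated exons of a gene, also those outside protein-coding transcripts. The order of genes and the paralog shares per kb depend on it. Among the 32 genes, Aldoa, the fructose bisphosphate aldolase, and Ldha, the lactate dehydrogenase A subunit, had the highest levels in WT, at 230.6 and 230.4 CPM per kb. They ranked 167 and 168 among all genes with at least 50 reads in a bulk library. Taldo1, the transaldolase of the pentose phosphate pathway, followed at 111 CPM per kb, then Gpi1, which isomerizes glucose 6-phosphate, at 75. Before length scaling the order differed, with 508 CPM for the phosphofructokinase Pfkp, 484 for Gpi1 and 241 for Taldo1. Pkm, the muscle-type pyruvate kinase, was at 51.4 and Hk1, a hexokinase, at 51 CPM per kb. At the other end were Gapdh, the glyceraldehyde 3-phosphate dehydrogenase, at 8.47 CPM per kb (rank 4069), the monocarboxylate transporter Slc16a1 at 4.05 and the liver-type phosphofructokinase Pfkl at 3.80. Hk3, Aldoc, Ldhb, Slc16a3, Pfkfb4 and Pdk1, 6 of the 32 genes, had too few reads for a call in any comparison. Ldhb, the other lactate dehydrogenase subunit, had 0 reads in all 3 libraries.

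**Figure D1:**
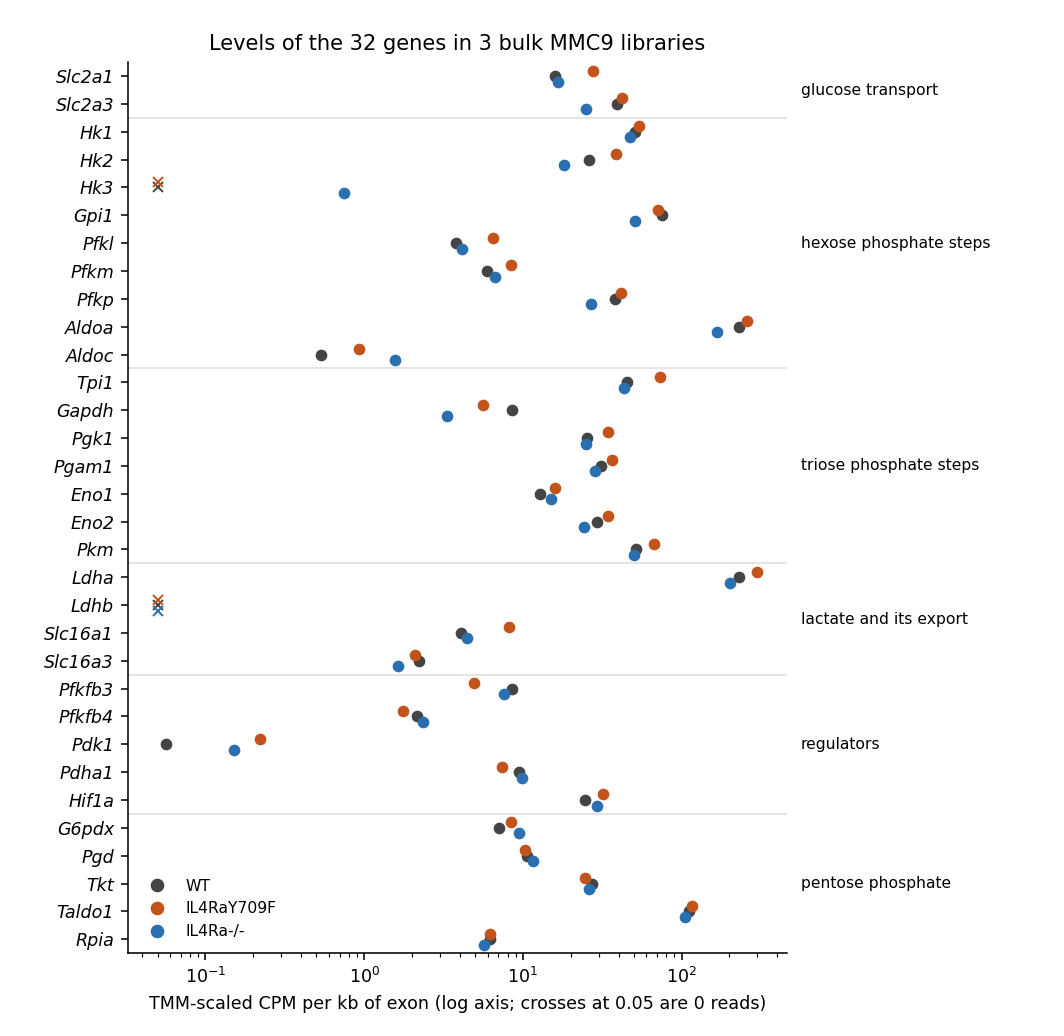
Level of each of the 32 genes in the WT (black), IL4RaY709F (orange) and IL4Ra-/- (blue) bulk library, as TMM-scaled CPM per kb of exon on a log axis, grouped by role. Crosses mark 0 reads. Aldoa and Ldha lie highest in each library and Ldhb is at 0 in all 3.

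The sequences just before the transcription start are given for 4 genes, 1 for each of transport, the triose step, lactate formation and ATP formation, to show where the letters of a HIF core do and do not occur. Each is the 250 bases before the start in RefSeq (GRCm38.p6), on the strand of the gene, with ACGTG or its complement CACGT, and both together as CACGTG, in capitals.
Slc2a1, chr4:119108495-119108744, plus strand: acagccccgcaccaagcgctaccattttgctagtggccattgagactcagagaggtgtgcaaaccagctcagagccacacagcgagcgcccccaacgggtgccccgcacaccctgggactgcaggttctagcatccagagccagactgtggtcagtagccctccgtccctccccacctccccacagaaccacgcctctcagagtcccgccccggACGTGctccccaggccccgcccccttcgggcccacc
Tpi1, chr6:124814159-124814408, minus strand: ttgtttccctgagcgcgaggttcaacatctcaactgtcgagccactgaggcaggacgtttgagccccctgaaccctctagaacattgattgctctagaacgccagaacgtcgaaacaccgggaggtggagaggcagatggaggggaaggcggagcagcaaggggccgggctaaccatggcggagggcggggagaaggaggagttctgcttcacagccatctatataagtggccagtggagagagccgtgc
Ldha, chr7:46845554-46845803, plus strand: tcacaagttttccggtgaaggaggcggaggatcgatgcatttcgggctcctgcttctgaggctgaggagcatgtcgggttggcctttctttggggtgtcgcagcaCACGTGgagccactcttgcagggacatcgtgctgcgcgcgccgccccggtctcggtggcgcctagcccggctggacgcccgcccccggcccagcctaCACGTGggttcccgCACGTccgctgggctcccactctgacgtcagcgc
Pgk1, chrX:106186850-106187099, plus strand: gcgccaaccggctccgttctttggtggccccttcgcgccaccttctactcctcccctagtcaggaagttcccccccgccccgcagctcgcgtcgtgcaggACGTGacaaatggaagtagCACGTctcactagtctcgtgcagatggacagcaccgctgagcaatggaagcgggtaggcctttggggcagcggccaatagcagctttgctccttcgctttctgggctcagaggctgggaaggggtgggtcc
The window of Slc2a1 holds 1 run in capitals, the window of Ldha shown 3, of which 2 are the palindrome CACGTG, that of Pgk1 2 and that of Tpi1 none. Ldha has a second start in the table, whose window (chr7:46846832-46847081) had no match, and neither had the Gapdh window. The RefSeq starts differ from the GENCODE gene spans given below. By those spans the windows of Slc2a1 and Tpi1 lie partly inside the gene, and those of Ldha and Gapdh wholly. Across the promoter table, 31 of the 32 genes matched by symbol, with 45 windows. ACGTG on either strand occurred in 16 of the 45 windows (35.6%), belonging to 13 genes, against 16.6% of all 32851 windows of the same length. CACGTG, which contains ACGTG, occurred in 11.1% against 6.02%, and the palindrome with the spacing of a STAT6 site, searched on both strands, in 11.1% against 5.85%. TGANTCA, an AP-1 type motif, occurred only in Aldoa (2.22% of windows against 6.75%). The member windows had a median GC content of 60.4%, against 52.4% over all windows. A match describes letters in a window, and binding was not measured.

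The first comparison was IL4RaY709F against WT, which asks what stronger signalling through the receptor goes with. The 32 genes as a whole stood somewhat above WT. They summed to 5742 CPM in IL4RaY709F and 4995 CPM in WT, a log2 ratio of 0.20 (0.16 to 0.24), which became 0.09 with total-read scaling. Of the 32 genes, 26 had at least 50 reads in the larger library, and their median log2 ratio was 0.23, against 0.02 over all 5964 such genes (quartiles -0.18 and 0.23). The ratio was above 0 for 19 of the 26, against 52.8% of all genes. The interval lay above a ratio of 1 for 13 (18.1% of all genes) and below it for 2 (13.6%). Few differences were large. At 2-fold or more, 1 gene was higher (1.68% of all genes), Slc16a1, and 0 were lower (0.771%). At 1.5-fold or more, 4 were higher (6.15%), Slc2a1, Pfkl, Tpi1 and Slc16a1, and 2 were lower (3.55%), Gapdh and Pfkfb3. When libraries were scaled by total gene reads instead, the median of all genes moved from 0.02 to -0.09, that of the members to 0.13, and 17 of 26 members lay above 0 against 39.1% of all genes. Tpi1 then stood at a log2 ratio of 0.57, short of 1.5-fold.

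The second comparison, IL4Ra-/- against WT, asks what the loss of the receptor goes with. The sum of the 32 genes was 4201 CPM in IL4Ra-/-, a log2 ratio to WT of -0.25 (-0.29 to -0.21), which became -0.11 with total-read scaling. The sum gives most weight to abundant genes. With a minimum of 200 reads the median was -0.16 for the members and -0.15 over all genes. At that minimum, 2 of 14 members lay above 0, against 31.9% of all genes. The median over the 26 genes with enough reads was -0.08, the same as over all 6246 genes (-0.08, quartiles -0.33 and 0.18). The ratio was above 0 for 9 of the 26 (41.9% of all genes). With total-read scaling these medians were 0.05 and 0.05, and 17 of the 26 lay above 0 against 56.1% of all genes, so the direction of this tally turned. With TMM scaling the interval lay above 1 for 1 gene, Hif1a (12.6%), and below 1 for 8 (27.4%). At 2-fold or more, 0 were higher (2.43%) and 1 was lower (1.3%), Gapdh. At 1.5-fold or more, 0 were higher (6.52%) and 2 were lower (8.85%), Slc2a3 and Gapdh. With total-read scaling Slc2a3 stood at a log2 ratio of -0.51, short of 1.5-fold.

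The third comparison set the mutants against each other. Here the median log2 ratio of IL4RaY709F to IL4Ra-/- was 0.44 over the 26 genes, against 0.09 over all 6319 genes (quartiles -0.21 and 0.39), and 21 of 26 were above 0 (58% of all genes). With total-read scaling the medians were 0.20 and -0.15, and 16 of 26 members lay above 0, against 35.9% of all genes. The interval lay above 1 for 16 genes (30.1%) and below 1 for 1 (16.6%). At 2-fold or more, 1 was higher (4.62%), Hk2, and 0 were lower (3.5%). At 1.5-fold or more, 9 were higher (14.6%), Slc2a1, Slc2a3, Hk2, Pfkl, Pfkp, Aldoa, Tpi1, Gapdh and Slc16a1, and 1 was lower (8.36%), Pfkfb3. With total-read scaling only Hk2 (log2 0.84) and Slc16a1 (0.63) of the 9 stayed past 1.5-fold. The others lay at 0.37 (Pfkp) to 0.51 (Gapdh), and Pfkfb3 stayed past 1.5-fold at -0.85. The 3 comparisons share libraries in pairs, so they are not independent of each other.

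**Figure D2:**
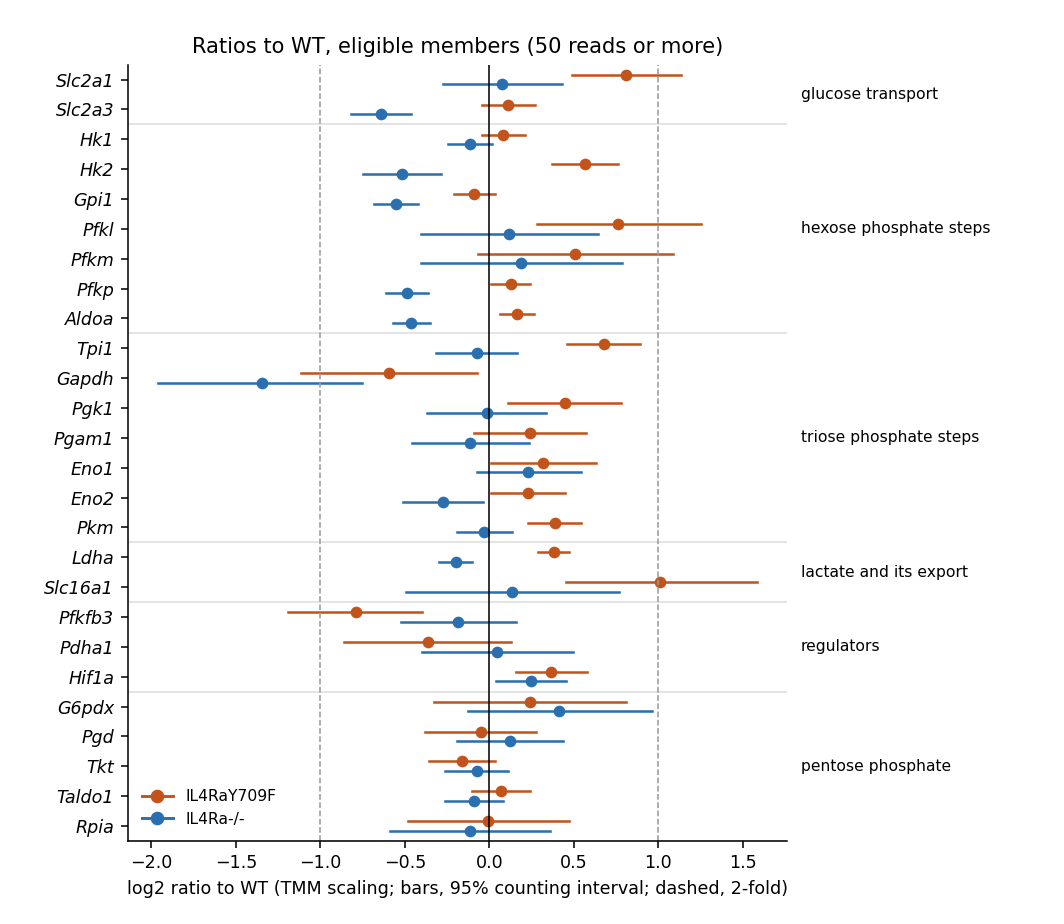
Log2 ratio to the WT library of the 26 genes with at least 50 reads, for IL4RaY709F (orange) and IL4Ra-/- (blue), with exact 95% counting intervals and dashed lines at 2-fold. Slc16a1 lies at 1.01 in IL4RaY709F and Gapdh at -1.35 in IL4Ra-/-, while the intervals of all 5 pentose phosphate genes hold 0, with G6pdx at 0.41 in IL4Ra-/-.

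The composition of the libraries differed, and these values stand beside every bulk ratio here. In bulk RNA, fewer cells of a type and less RNA per cell cannot be told apart. The 13 mast cell markers summed to 67436 CPM in WT, 95181 in IL4RaY709F and 63103 in IL4Ra-/-. The 10 macrophage markers summed to 774, 732 and 1218 CPM, 8 of the 9 with enough reads were at least 2-fold higher in IL4Ra-/- than in WT, and 6 of the 10 were detected in no WT single cell. Most of that sum is Cx3cr1, which 68 of 80 WT cells also expressed. The 9 B and plasma cell markers summed to 6571, 3025 and 13378 CPM, the 11 epithelial markers to 27.1, 30.5 and 88.9 CPM and the 7 T cell markers to 158, 198 and 277 CPM. Some of these were also detected in WT single cells, Cd3e in 30 of the 80, Igha in 27 and Igkc in 20. Detected in no WT cell were 1 of the 9 B and plasma cell markers, 7 of the 11 epithelial markers and 4 of the 7 T cell markers. The 5 basophil markers summed to 326, 549.9 and 282 CPM, the 7 stromal and endothelial markers to 224, 375 and 212 and the 7 ILC2 markers to 56, 76.1 and 46.8, so these sums, like that of the mast cell markers, were highest in IL4RaY709F. All 5 basophil markers were also detected in WT single cells, while 6 of the 7 stromal and endothelial markers and 4 of the 7 ILC2 markers were in none. The remaining stromal and endothelial marker, Pecam1, was detected in 45 of the 80 WT cells. The 6 neutrophil markers had 9, 5 and 6 reads in all and the 6 erythroid markers 13, 7 and 10. The 18 proliferation genes summed to 482, 449 and 848 CPM, and 6 of the 11 with enough reads were at least 2-fold higher in IL4Ra-/- than in WT. The part of these cell types and of cycling cells in the ratios was not tested.

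The 2 glucose transporter genes had different patterns over the libraries. Slc2a1 and Slc2a3, which encode the transporters GLUT1 and GLUT3, together had 338 CPM in WT, 402 in IL4RaY709F and 239 in IL4Ra-/-. Slc2a1 (GRCm38 chr4:119108711-119137983, plus strand) had 127 reads in WT, 226 in IL4RaY709F and 149 in IL4Ra-/- (55.6, 97.2 and 58.6 CPM). IL4RaY709F alone was high, 1.75-fold above WT (1.40 to 2.19) and 1.66-fold above IL4Ra-/- (1.34 to 2.05). Slc2a3 (chr6:122727809-122801640, minus strand) had levels of 282 (WT), 305 (IL4RaY709F) and 181 CPM (IL4Ra-/-), from 645 reads in the first and 460 in the last. For this gene IL4Ra-/- was low, 1.56-fold below WT (1.38 to 1.76), and IL4RaY709F was 1.69-fold above IL4Ra-/- (1.5 to 1.9), while IL4RaY709F and WT differed by a log2 ratio of 0.11 with an interval that held 0 (-0.04 to 0.27). Per kb, Slc2a1 made up 28.9% of the pair in WT, 39.7% in IL4RaY709F and 40.1% in IL4Ra-/-.

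Among the hexose phosphate steps, Hk2 passed the 2-fold rule between the mutants. Hk2 (chr6:82725025-82774454, minus strand), the inducible hexokinase that binds mitochondria, had 355 reads in WT, 534 in IL4RaY709F and 276 in IL4Ra-/- (155, 229.6 and 109 CPM). The mutants differed 2.12-fold (1.83 to 2.46), with WT between them: IL4RaY709F was 1.48-fold above WT (1.29 to 1.70) and IL4Ra-/- 1.43-fold below it (1.22 to 1.68). The call between the mutants was lost with total-read scaling, at a log2 ratio of 0.84 in place of 1.08. Hk1, the more widely expressed form, had 994, 1071 and 1021 reads (435, 460.5 and 402 CPM), and both intervals against WT held a ratio of 1. Per kb, Hk2 made up 33.8% of the 3 hexokinases in WT, 41.6% in IL4RaY709F and 27.6% in IL4Ra-/-. Hk3, a hexokinase of myeloid cells, had 0, 0 and 7 reads, too few for a call. With the floor of 3 reads for WT the ratio of IL4Ra-/- to WT is at least 2.10-fold before counting error, whose lower limit is 1.3-fold. Hk3 was found in 0 of 80 WT cells, which come from a different model, and the macrophage markers were higher in the IL4Ra-/- library. The source of the 7 reads was not tested.

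The phosphofructokinase that commits glucose to glycolysis was mostly the platelet form. Pfkp had 1160, 1287 and 920 reads (508, 553 and 362 CPM), with a log2 ratio to WT of 0.12 in IL4RaY709F (0.01 to 0.24) and -0.49 in IL4Ra-/- (-0.61 to -0.36), and IL4RaY709F was 1.53-fold above IL4Ra-/-. Pfkl, the liver form, had 58, 100 and 70 reads (25.4, 43 and 27.5 CPM) and was 1.69-fold higher in IL4RaY709F than in WT (1.21 to 2.38). Pfkm, the muscle form, had 45, 65 and 57 reads (19.7, 27.9 and 22.4 CPM), and every interval held a ratio of 1. Pfkp made up 79.6% of the family per kb in WT, 73.6% in IL4RaY709F and 71.4% in IL4Ra-/-.

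Gpi1 and Aldoa, on either side of that step, were low in IL4Ra-/-. Gpi1 had 1106 reads in WT, 1058 in IL4RaY709F and 839 in IL4Ra-/- (484, 455 and 330 CPM), and IL4Ra-/- was 1.47-fold below WT (1.34 to 1.61). Aldoa had 1534, 1748 and 1238 reads (671, 752 and 487 CPM), with log2 ratios to WT of 0.16 (0.06 to 0.26) and -0.46 (-0.57 to -0.35), and the mutants differed 1.54-fold. The second identifier of Aldoa had 1, 2 and 3 reads. Aldoc, the brain-type aldolase, had 4, 7 and 13 reads, too few for a call, and Aldoa made up 99.1% to 99.8% of the pair in the bulk libraries. As a whole the hexose phosphate genes stood at 2300.2 CPM in WT, 2525 in IL4RaY709F and 1748 in IL4Ra-/-, which gives log2 ratios to WT of 0.13 (0.08 to 0.19) and -0.40 (-0.45 to -0.34). With total-read scaling these were 0.03 and -0.26.

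The triose phosphate genes, from Tpi1 to Pkm, summed to 741 CPM in WT, 955 in IL4RaY709F and 691 in IL4Ra-/-. Against WT this is a log2 ratio of 0.37 (0.27 to 0.46) in IL4RaY709F and of -0.10 (-0.20 to -0.0034) in IL4Ra-/-, and the second turned to 0.03 with total-read scaling. Tpi1 (chr6:124810586-124814296, minus strand), which interconverts the triose phosphates, had 286 reads in WT, 465 in IL4RaY709F and 302 in IL4Ra-/- (125, 199.9 and 119 CPM). IL4RaY709F was alone in being high, 1.60-fold above WT (1.38 to 1.86) and 1.68-fold above IL4Ra-/-. Pkm had 588, 782 and 641 reads (257, 336 and 252 CPM), with log2 ratios to WT of 0.39 (0.23 to 0.54) and -0.03 (-0.19 to 0.13). Pgk1, the phosphoglycerate kinase, had 130, 180 and 143 reads and a log2 ratio of 0.44 in IL4RaY709F (0.11 to 0.78). Pgam1, the phosphoglycerate mutase, had 140, 168 and 144 reads, and both intervals against WT held a ratio of 1.

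The enolases were the family in which the bulk libraries held more of the neuronal-type form than of the common one. Eno2 had 313, 373 and 288 reads (137, 160 and 113 CPM) and Eno1 157, 199 and 205 (68.7, 85.6 and 80.6 CPM). Per kb, Eno2 made up 69.5% of the pair in WT, 68.2% in IL4RaY709F and 61.6% in IL4Ra-/-. Eno2 had log2 ratios to WT of 0.23 (0.01 to 0.45) and -0.27 (-0.51 to -0.04), Eno1 of 0.32 (0.01 to 0.63) and 0.23 (-0.08 to 0.54). The Eno1 count has a limit in how reads were assigned. Of the distinct 50-base words in protein-coding Eno1 transcripts, 49.5% also occur in another GENCODE gene, against 0.197% for Eno2, and the near-identical copy Eno1b had 18, 31 and 19 reads in bulk and was detected in 53 of the 80 cells.

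Gapdh was the only triose phosphate gene below WT in IL4RaY709F and the only one past the 2-fold rule in IL4Ra-/-. The gene (chr6:125161715-125166467, minus strand) had 80 reads in WT, 54 in IL4RaY709F and 35 in IL4Ra-/- (35, 23.2 and 13.8 CPM). WT was the highest library, 1.51-fold above IL4RaY709F (1.05 to 2.17) and 2.54-fold above IL4Ra-/- (1.69 to 3.90). These are low counts for this enzyme, at 8.47 CPM per kb in WT against 45.5 for Tpi1 and 25.3 for Pgk1, which act just before and after it. Before length scaling they were 35 CPM for Gapdh, 125 for Tpi1 and 56.9 for Pgk1. The exon length was 4133 bases for Gapdh and 2244 for Pgk1. Their protein-coding transcripts held 1943 and 1776 distinct 50-base words, so the gap per kb depends in part on that length. Of these words in Gapdh, 58.4% occur in another gene, and the share was 68% for Pgk1 and 41.5% for Pgam1. The sources used here do not say how reads that map to several places were counted, and the part of that choice in the Gapdh level was not tested. Without Gapdh, the sum of the other 31 genes had log2 ratios to WT of 0.21 and -0.24.

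The genes of lactate formation and export summed to 792 CPM in WT, 1039 in IL4RaY709F and 693 in IL4Ra-/-. Ldha (chr7:46841475-46855627, plus strand) had 1743 reads in WT, 2307 in IL4RaY709F and 1689 in IL4Ra-/- (763, 992 and 664 CPM). IL4RaY709F was high, 1.3-fold above WT (1.22 to 1.38) and 1.49-fold above IL4Ra-/- (1.40 to 1.59), and IL4Ra-/- had a log2 ratio to WT of -0.20 (-0.30 to -0.10). Ldhb had 0 reads in every library, and Ldhc, the testis form, had 40, 40 and 58. Slc16a1 (chr3:104638668-104658462, plus strand), which encodes the lactate transporter MCT1, had 41, 84 and 50 reads (17.9, 36.1 and 19.7 CPM). IL4RaY709F was 2.01-fold above WT (1.37 to 3.00), at the edge of the 2-fold rule, and 1.84-fold above IL4Ra-/-. The 2-fold call of Slc16a1 was lost at a log2 ratio of 0.90 with total-read scaling and 0.99 with upper-quartile scaling. Slc16a3, which encodes the export-type transporter MCT4, had 27, 26 and 22 reads, too few for a call.

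The 5 regulators summed to 257, 263 and 279 CPM, and both intervals against WT held a ratio of 1. Pfkfb3 (chr2:11471433-11554077, minus strand), a bifunctional enzyme that makes the phosphofructokinase activator fructose 2,6-bisphosphate, had 148 reads in WT, 87 in IL4RaY709F and 145 in IL4Ra-/- (64.8, 37.4 and 57 CPM). Only IL4RaY709F was low, 1.73-fold below WT (1.32 to 2.28) and 1.52-fold below IL4Ra-/- (1.16 to 2.01). Hif1a had 333, 437 and 439 reads (146, 188 and 173 CPM), with log2 ratios to WT of 0.37 (0.16 to 0.58) and 0.24 (0.04 to 0.45), so WT was the lowest library. Pdha1, a subunit of pyruvate dehydrogenase, had 81, 64 and 93 reads, and its intervals held a ratio of 1. Pfkfb4, a relative of Pfkfb3, had 24, 20 and 29 reads, and Pdk1, a kinase that inhibits pyruvate dehydrogenase, 1, 4 and 3, both too few for a call.

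The pentose phosphate genes had nearly the same sum in each library. It was 566 CPM in WT, 558 in IL4RaY709F and 552 in IL4Ra-/-, with log2 ratios to WT of -0.02 (-0.13 to 0.09) and -0.04 (-0.15 to 0.07), which became -0.13 and 0.10 with total-read scaling. All 5 had enough reads, and none passed the 1.5-fold rule in any of the 3 comparisons. Taldo1 had 551, 588 and 575 reads (241, 253 and 226 CPM) and Tkt, the transketolase, 460, 418 and 486 (201, 180 and 191 CPM). Pgd, the 6-phosphogluconate dehydrogenase, had 157, 154 and 190 reads, and Rpia, the ribose 5-phosphate isomerase, 76, 77 and 78. G6pdx, which catalyses the first step, had 50, 60 and 74 reads and the widest intervals of the 5, with log2 ratios to WT of 0.24 (-0.33 to 0.81) and 0.41 (-0.13 to 0.96).

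**Figure D3:**
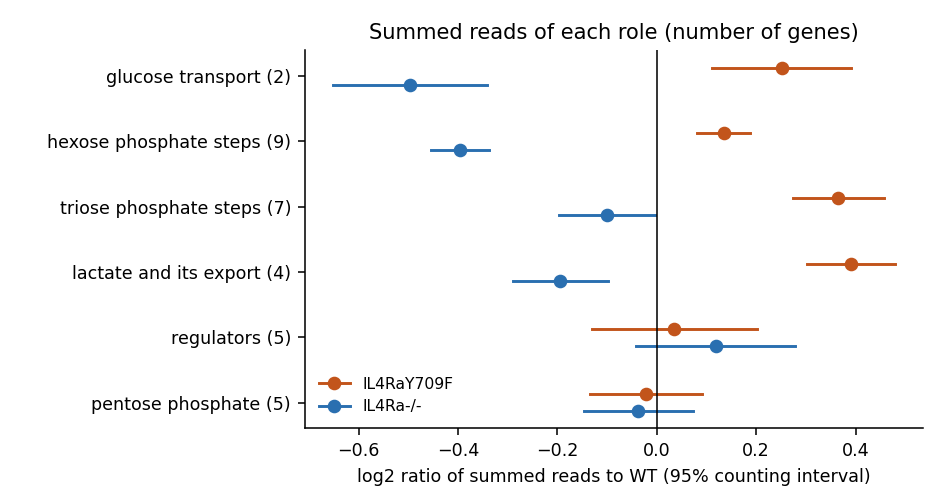
Log2 ratio to WT of the summed reads of the genes of each role, for IL4RaY709F (orange) and IL4Ra-/- (blue), with exact 95% counting intervals and the number of genes in brackets. IL4RaY709F lies above 0 and IL4Ra-/- below 0 for the first 4 roles with TMM scaling (with total-read scaling the triose phosphate steps of IL4Ra-/- turn to 0.03), and the intervals of both hold 0 for the regulators and the pentose phosphate genes.

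Genes of neighbouring pathways were counted from lists, and the shares of all genes given above apply to them as well. Of 28 other glycolysis and transport genes, 4 had enough reads in IL4RaY709F against WT and 5 in the other comparisons. Among these, Slc2a8, which encodes the intracellular transporter GLUT8, had 63, 93 and 36 reads, and the mutants differed by a log2 ratio of 1.5 (0.93 to 2.10). Slc2a6, which encodes a lysosomal transporter, had 245, 317 and 208 reads, and Bsg, the chaperone of MCT1 and MCT4, 350, 393 and 376.

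No gene of 13 for pyruvate entry, 10 further pentose phosphate genes or 15 for gluconeogenesis and glycogen passed the 2-fold rule in any comparison. Among the last, Pygl, the liver glycogen phosphorylase, had 713, 712 and 719 reads and Gyg, the glycogenin that primes glycogen, 110, 128 and 171. The pyruvate dehydrogenase subunits Pdhb and Dld had 177, 149 and 198 reads and 147, 155 and 205 reads. Of the pentose phosphate list, Pgm2, which acts on pentose phosphates, had 85, 103 and 95 reads and Prps2, a phosphoribosyl pyrophosphate synthetase, 76, 84 and 99. Among the 5 pyruvate entry genes with enough reads, Pdk3, a pyruvate dehydrogenase kinase, was lower at 1.5-fold in IL4RaY709F than in IL4Ra-/- (log2 -0.83, -1.48 to -0.20).

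Of 20 HIF regulators and targets, 13 had enough reads, with medians of 0.06 (IL4RaY709F against WT), -0.23 (IL4Ra-/- against WT) and 0.34 (between the mutants). Ero1l, a disulfide oxidase of the endoplasmic reticulum, had 3139, 4566 and 2978 reads, and Ndrg1, a stress-responsive gene, 3008, 3913 and 3378. Ddit4, an inhibitor of mTOR complex 1, had 124, 63 and 93 reads and was the only one of the list past 2-fold, lower in IL4RaY709F than in WT (log2 -1.0, -1.46 to -0.55). Of 14 regulators of metabolism, 11 had enough reads. Myc, a transcription factor with many glycolytic targets, had 58, 104 and 38 reads, with log2 ratios of 0.82 (0.34 to 1.31) and -0.76 (-1.39 to -0.15) to WT and 1.58 (1.03 to 2.16) between the mutants, the last past 2-fold. Txnip, which restrains glucose uptake, had 366, 203 and 265 reads and was highest in WT, with log2 ratios of -0.88 (-1.13 to -0.62) and -0.62 (-0.85 to -0.39). Mlxip, a glucose-sensing transcription factor, had 924, 638 and 732 reads, again highest in WT, and Akt2, a kinase of insulin signalling, 461, 482 and 321.

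**Figure D4:**
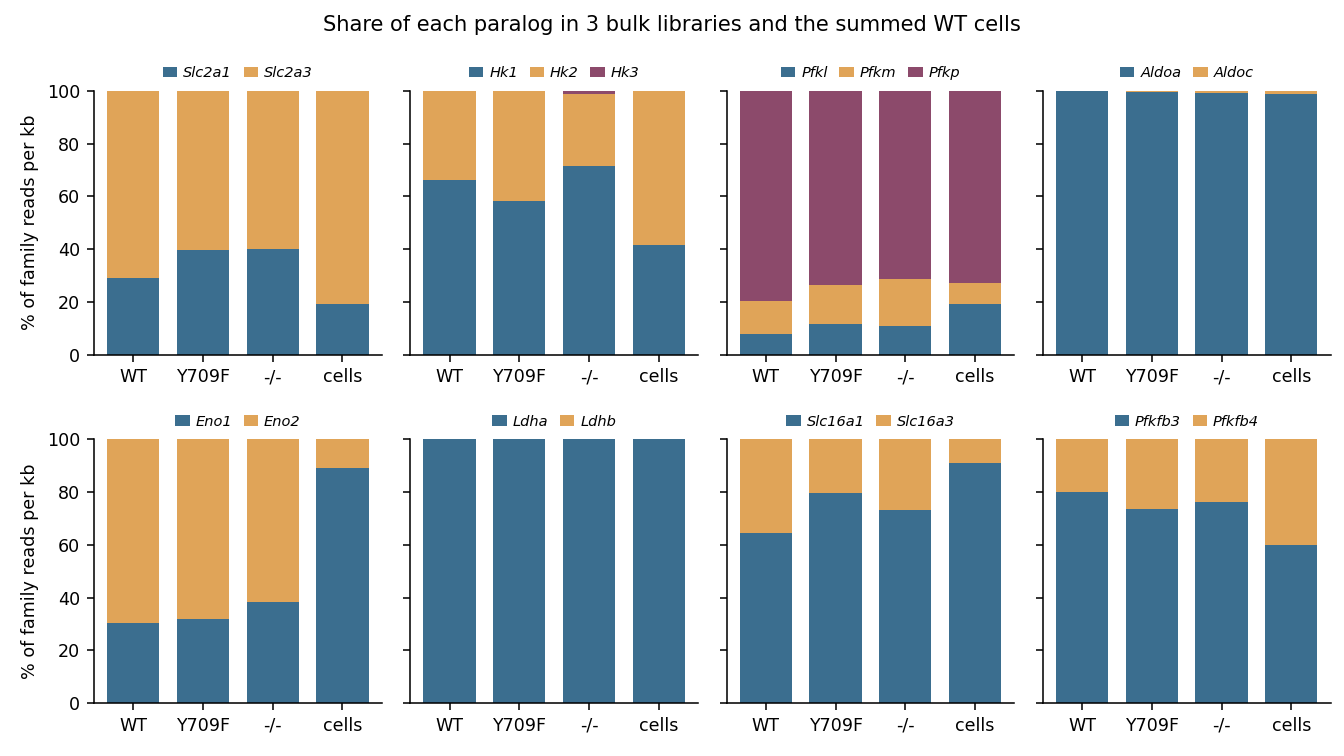
Share of reads per kb of exon that each paralog takes of its family, in the 3 bulk libraries and in the summed reads of the 80 WT single cells. Ldha is at 100% throughout, while Eno2 takes 69.5% of the enolases in the WT bulk library and 10.9% in the cells.

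The single WT cells show how these genes are spread over MMC9s. A gene was called detected at 10 reads or more. Ldha and Aldoa were found in most cells, Aldoa in 73 of 80 (91.3%, 82.8 to 96.4) and Ldha in 69 (86.3%, 76.7 to 92.9). Taldo1 was found in 62, Gpi1 in 59, Pfkp and Eno1 in 55 each, Pkm in 53, Pgam1 in 46 and Hk1 in 44, which makes 9 genes in at least 40 of the 80 cells. With every cell thinned to 150000 gene reads there were 7, since Pgam1 went from 57.5% to 20% of cells and Hk1 from 55% to 30%. Ldha had a median of 1191.5 CPM and a highest value of 4523.5, and Aldoa a median of 543 and a highest value of 11532. Tpi1 was detected in 37 cells, Pgk1 in 33, Hif1a in 30, Slc2a3 in 29, Hk2 in 25, Tkt in 24, Gapdh in 21 and Eno2 in 18. Pgd was detected in 14 cells, Pfkl and Pdha1 in 13 each, Slc2a1 in 9, Pfkfb3 in 7, G6pdx in 5, Pfkfb4 in 4, and Pfkm and Aldoc in 3 each. Slc16a1, Slc16a3 and Rpia were detected in 2 cells each, and 1 cell held 93.1% of the Slc16a1 reads. Hk3, Ldhb and Pdk1 were detected in 0 of 80 cells, which has an exact upper limit of 4.51% for cells that reach 10 reads and sets no limit on cells that express the gene. 1 cell had a Pdk1 read.

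Gapdh counts were also low cell by cell. The limit from words shared with other genes applies to the cells as well, so they are no separate check of the low bulk level. Gapdh reached 10 reads in 26.25% of cells, and in 1.25% after thinning to equal depth. At least 1 Gapdh read was present in 65 of 80 cells, but its median was 3.90 CPM and its highest value 74.9 CPM. Tpi1 had a highest value of 1050 CPM and Pgk1 of 1404 CPM.

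Forms of the same step were also counted cell by cell. Slc2a3 without Slc2a1 was detected in 27 cells, Slc2a1 without Slc2a3 in 7, both in 2 and neither in 44. Hk1 alone was detected in 27 cells, Hk2 alone in 8, both in 17 and neither in 28. Any of the 2 transporters was found in 45% of cells, any hexokinase in 65% and any phosphofructokinase in 76.25%. Detection at a fixed number of reads depends on depth and on the chance capture of transcripts, so a missing form is not shown to be absent. In the summed cells the families had Slc2a1 at 19.2%, Hk2 at 58.6%, Pfkp at 73% and Aldoa at 98.8% per kb, beside 28.9%, 33.8%, 79.6% and 99.8% in WT bulk. Eno2 made up 10.9% of the enolases in the cells and 69.5% in WT bulk. The cells and the bulk library come from different models, so these values stand side by side only.

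The number of the 32 genes detected in a cell ran from 0 to 20 with a median of 10.5, and 2 cells had none. Their summed level ran from 66.9 to 11689 CPM with a median of 4911 and a mean of 4999 ± 2429 (SD over 80 cells of 1 sample). The WT bulk library, from a different model and scaled with TMM, had 4995 CPM. Single genes such as Eno1 and Eno2 differed between bulk and cells in opposite directions, so the near-equal sums show no agreement gene by gene. The number detected followed the reads per cell (Spearman rho 0.62), and the summed level did so less (rho 0.34). The summed level had a rho of 0.13 with the summed proliferation genes. For the 20 genes found in at least 10 cells, the 190 pairs had a median rho of 0.13 and a range of -0.24 to 0.47, and 12 pairs were above 0.3. The highest were Gapdh with Pkm (0.47), Pgd with Tkt (0.41) and Hk1 with Ldha (0.38). These correlations are across cells that share 1 sample and differ in depth, and are descriptions only.

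**Figure D5:**
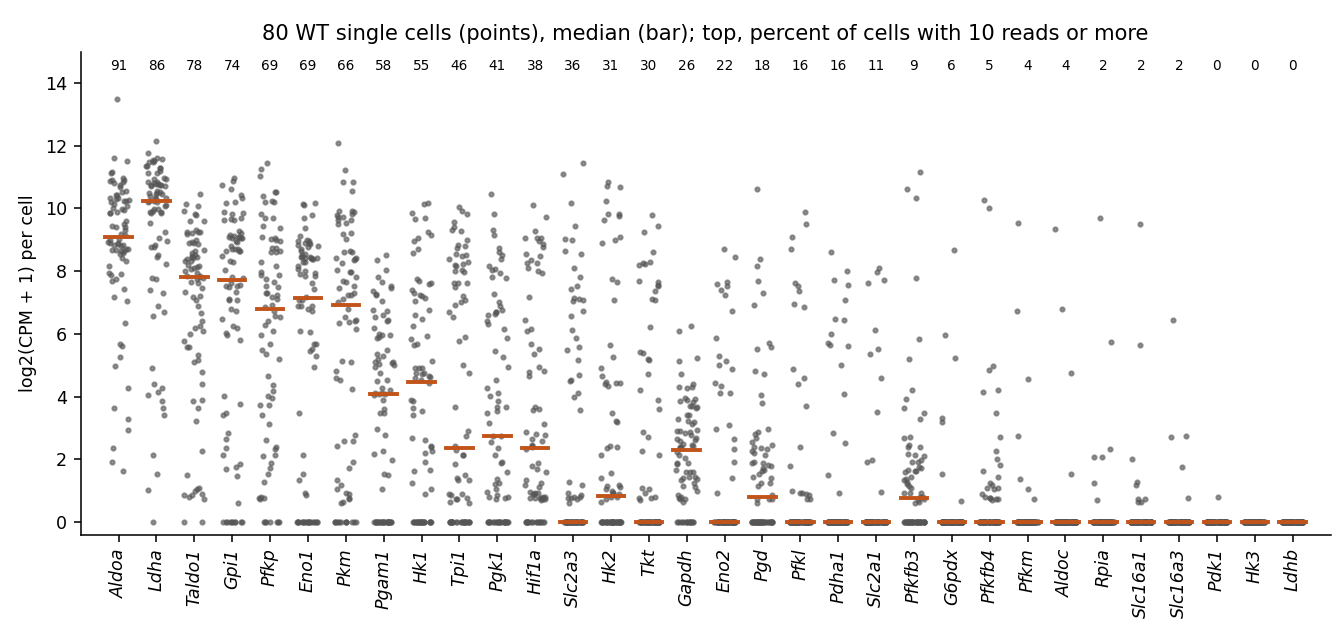
Level of each of the 32 genes in the 80 WT single cells (points) as log2(CPM + 1), with the median as a bar and the percent of cells with at least 10 reads above, ordered by that percent. It runs from 91.3% for Aldoa to 0% for Hk3, Ldhb and Pdk1, and Gapdh has many cells with a few reads and a highest value of 74.9 CPM.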

How the data were processed

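The deposited values are read counts per gene, whole and not normalized, for 3 bulk libraries and 81 cells. Per the submitters' processing notes, HISAT and featureCounts (Subread 2.0.0) were used, and GRCm38 and mm9 are named without roles. Gene coordinates matched GENCODE M21 (GRCm38) for 54851 of 55144 shared identifiers. The sources used here give no strand or multi-mapping settings.

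Bulk counts were scaled with TMM (edgeR 4.0.16) to CPM. Ratios of 2 libraries have Clopper-Pearson 95% intervals. A gene needed 50 reads in the larger library, and was called at 2-fold (or 1.5-fold) with an interval excluding 1. Counts of 0 were set to 3 reads. Unchanged genes were also simulated with counting noise only, without differences between pools, sorts or animals. On these the 2-fold rule called 2 of 5892 for IL4RaY709F against WT. The share of false calls in the real libraries is therefore not known. Cells needed 10000 gene reads, and no doublet caller was run. Other scalings (DESeq2 1.42.0 size factors, upper quartile, total reads), read minimums and a length correction were tried. Motifs were searched on both strands. All 32 genes are accounted for, and list genes are named when past 2-fold or, for each list, among the 2 with most reads. Pdk3 and Txnip were named after their values were seen. The 32 genes and the lists were chosen with earlier results of these data known. Intervals and floors cover counting error only. The intervals treat reads as independent molecules, which they are not, so they may be too narrow even for that error.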

Additional observations from a re-analysis of the deposited data

How the results depend on the processing

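No paired analysis was possible because each genotype had 1 library, and for the same reason no replicate could be left out. The number of the 32 genes past the 2-fold rule was 1 in each comparison. For IL4RaY709F against WT it was 0 with total reads, with upper-quartile scaling, with a minimum of 200 reads, with the exon-length correction and with TMM over genes detected in at least 8 WT cells (a setting added after the data were seen), and 6 at 1.5-fold. For IL4Ra-/- against WT it was 0 with a minimum of 200 reads, 2 with a minimum of 1 read and 2 at 1.5-fold. Between the mutants it was 0 with total reads and with TMM over genes detected in at least 8 WT cells, 2 with a minimum of 1 read and 10 at 1.5-fold. The counts at 1.5-fold are with TMM scaling, and several of those genes fell short of 1.5-fold with total reads. Stricter minimums test fewer genes, and the gene added with a minimum of 1 read was Hk3, with 0, 0 and 7 reads. Slc16a1 in IL4RaY709F against WT stood just past 2-fold, at 1.01 on the log2 scale with TMM and 0.90 with total reads. Hk2 between the mutants stood at 1.08 with TMM and 0.84 with total reads. Why the scalings differ was not tested. The median of the members for IL4RaY709F against WT ranged from 0.13 to 0.24 and between the mutants from 0.20 to 0.50. For IL4Ra-/- against WT it turned from -0.08 to 0.05 with total reads and 0.06 with the length correction. The number of genes found in at least 40 cells was 9, 16 when 1 read sufficed and 7 with cells thinned to equal depth. Low counts limit Slc16a1, Gapdh, Pfkl, Pfkm, G6pdx, Pdha1 and Rpia, each with 100 reads or fewer in every library.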

Other observations

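Cells and the WT bulk library came from different models and sorts, so their levels are given side by side without a comparison of conditions. On the scale of log2(CPM + 1), the summed cells minus WT bulk gave 1.90 for Eno1 and -2.27 for Eno2, -1.91 for Gapdh, 2.29 for Aldoc and -2.45 for Rpia. Aldoc rested on 3 cells and Rpia on 2.

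Of 26 gene copies named after members, 11 had no read in any bulk library and 2 had 20 reads or more in one, Ldhc with 40, 40 and 58 reads in WT, IL4RaY709F and IL4Ra-/- and Eno1b with 18, 31 and 19. Exons of Pdha1 overlapped another gene over 16.2% of their length, those of Pkm over 15.3% and those of G6pdx over 13.6%, and without a stated strand setting such reads cannot be told apart.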
